A study of Mus musculus with 24 samples.

Results

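Oligodendrocyte precursor cells, also called NG2 glia, are the dividing cells of the adult spinal cord that mature into myelinating oligodendrocytes. They were followed here through 10 genes that are widely used to mark them: Pdgfra, Cspg4, Cspg5, Gpr17, Bcan, Vcan, Olig1, Olig2, Sox10 and Ptprz1. A gene was measured if the array carries a probe set annotated with its symbol alone, and its brightest such probe set stood for it. Of the 10 genes, 9 were measured, out of 17097 genes in all, and Cspg4, which encodes the NG2 proteoglycan itself, had no such probe set and was not analysed here.

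RNA was extracted from the spinal cords of 24 mice and hybridized to Affymetrix 3′ IVT arrays, 1 array per mouse. There were 5 wild-type recipients of Th17 cells, 5 wild-type recipients of Th1 cells, 4 Th17 recipients labelled Act1 KO, 5 naive mice labelled Act1 KO and 5 naive wild-type mice. Act1, encoded by Traf3ip2, is the adaptor through which the IL-17 receptor signals. By the methods, recipients were irradiated with 500 rad 4 h before they were injected with T cells reactive to a myelin oligodendrocyte glycoprotein peptide, which induces experimental autoimmune encephalomyelitis (EAE), and cords were taken 12 days after transfer. Naive mice were neither irradiated nor injected, so transfer and irradiation cannot be told apart in any comparison with them. Mice were females of 8 to 12 weeks, by the methods. By the labels the cords come from the onset of symptoms and by the paper from the peak of disease.

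Precursors divide in response to platelet-derived growth factor, which they bind through PDGFRα, and leave the cycle as they commit to myelination. OLIG1, OLIG2 and SOX10 are transcription factors of the whole lineage, from precursor to myelinating cell. Brevican (Bcan), versican (Vcan), NG2, neuroglycan C (Cspg5) and the receptor phosphatase PTPRZ1 carry chondroitin sulfate, sugar chains of the matrix around cells. GPR17 is a receptor that appears as precursors commit and is lost before myelin is made. Several of the 10 genes are also active elsewhere: Bcan and Ptprz1 in astrocytes, Pdgfra and Vcan in fibroblasts, Vcan in monocytes, and Sox10 in Schwann cells.

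All values below are log2 expression after robust multi-array averaging (RMA), which sets every array to a common scale, and array medians lay between 3.46 and 3.57. Arrays of the same group correlated at 0.986 to 0.997. Traf3ip2 was not lower in the mice labelled Act1 KO, with 5.59 to 5.83 in Th17 recipients and 5.38 to 5.92 in naive mice so labelled, against 5.14 to 5.56, 5.01 to 5.32 and 4.07 to 4.60 in wild-type Th17 recipients, Th1 recipients and naive mice. Whether its probes lie in the deleted part is not given in the sources used here, so they do not check the label. A difference was called at an adjusted p under 0.05 with limma, two-sided, over all genes. Values of a gene's other probe sets come from a separate fit, adjusted over all 28898 probe sets with 1 symbol. In whole cord, fewer precursors and less RNA per precursor cannot be told apart. Nor can either be told from a change in other cells with these genes active, or in the share of RNA from other cells.

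Transfer of Th17 cells was followed by lower expression of most of these genes in wild-type cords. Compared with naive wild-type mice, 6 of the 9 measured genes fell (Bcan, Gpr17, Olig1, Olig2, Ptprz1 and Sox10), 1 rose (Vcan), and Pdgfra and Cspg5 did not pass the test. Over all genes tested, 25.5% were called lower and 18.0% higher in the same comparison. The 9 genes had a median log2 difference of -0.51. With ribosomal protein genes as the zero of each array, a scaling under which the median over all genes shifted by -0.42, 8 of the 9 genes were called lower and Vcan was not called, where 77.2% of all genes were called lower. Among the 8 was Pdgfra, whose values lay under the median of every array. In Th1 recipients 6 of 9 fell and none of the others passed in either direction, against 24.1% of all genes called lower, with a median of -0.58. Both comparisons use the same naive mice.

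**Figure D1:**
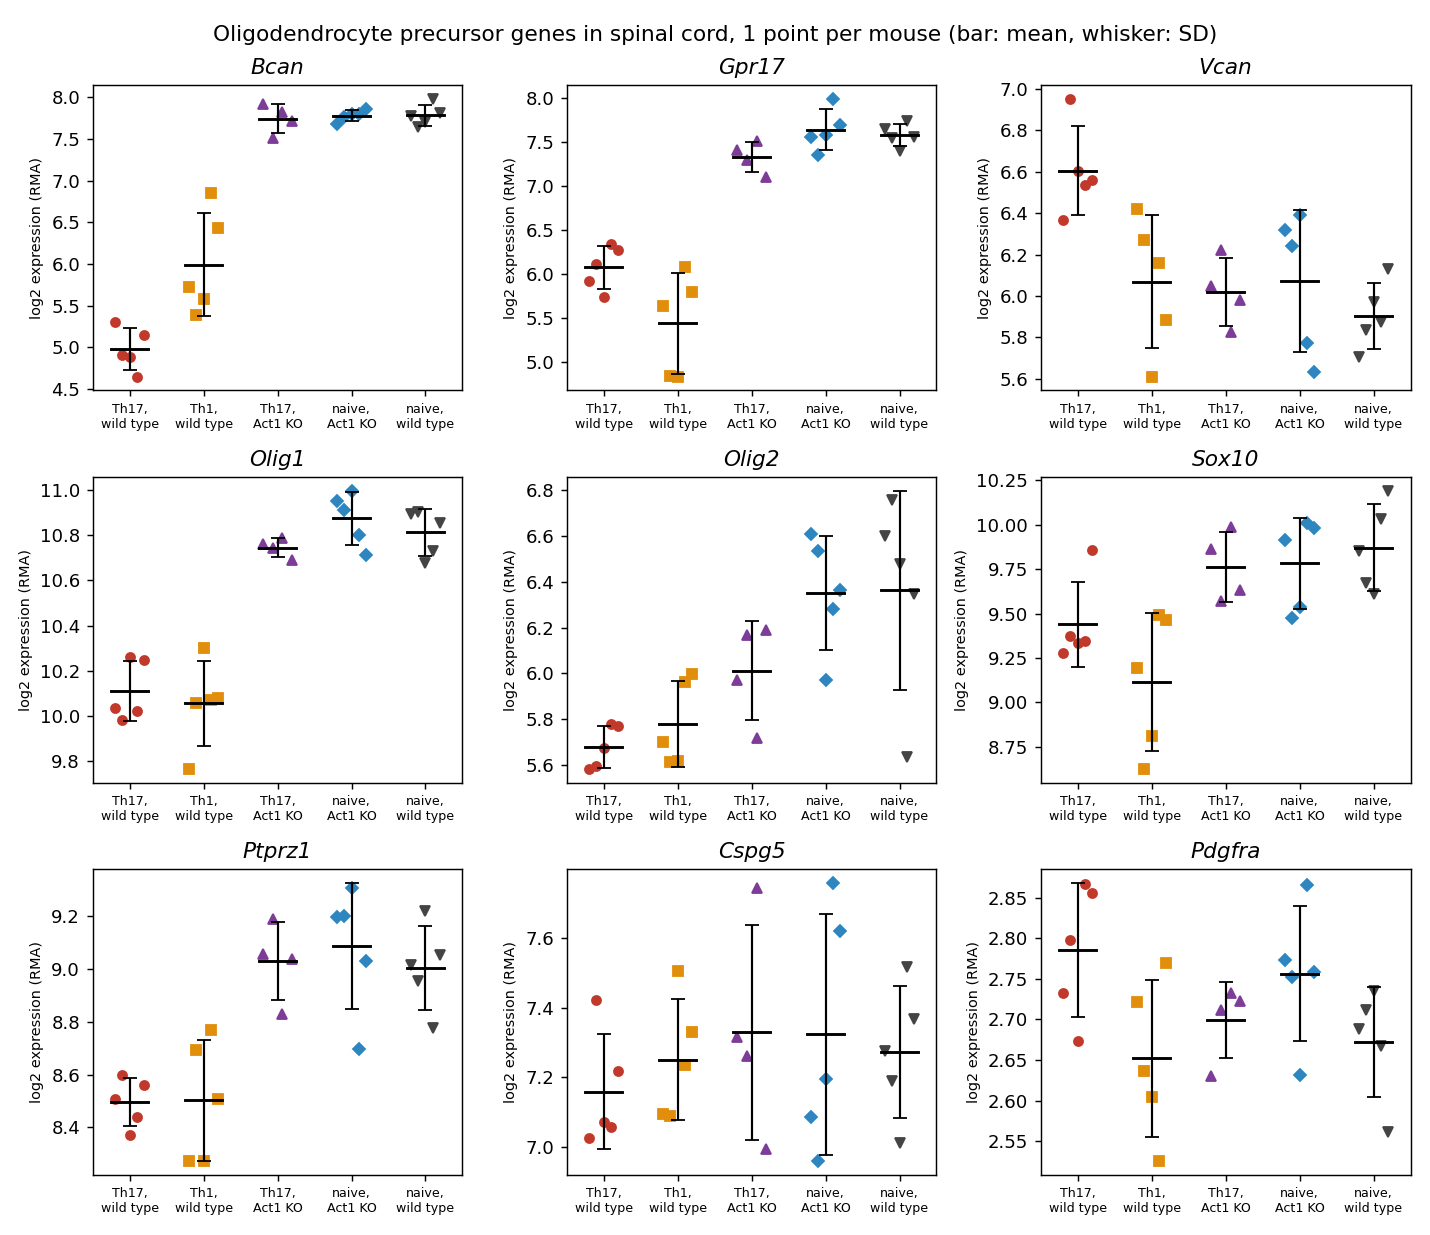
Log2 expression (vertical axes, separate scales) of the 9 measured genes in each of 24 spinal cords, by group from wild-type Th17 recipients on the left to naive wild-type mice on the right. Bars are group means and whiskers 1 SD; Bcan and Gpr17 are low in both groups of wild-type recipients and high in the 4 Act1 KO-labelled Th17 recipients.

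Bcan, which encodes the brain matrix proteoglycan brevican, changed most in Th17 recipients. Its log2 expression was 5.30, 4.91, 4.88, 4.65 and 5.15 in the 5 Th17 recipients, against 7.78, 7.64, 7.71, 7.98 and 7.81 in the naive mice. The groups lay more than 2 units apart. The log2 difference was -2.81 (standard error 0.18, adjusted p = 8.8e-13), which is 6.99-fold lower, and the exact permutation test gave p = 0.00794, the smallest that 5 mice against 5 allow. Of 17097 genes, Bcan had the lowest log2 difference, rank 1. In Th1 recipients Bcan was 5.72, 5.39, 5.58, 6.85 and 6.43, also below every naive mouse, and 3.46-fold lower than in naive mice (difference -1.79, standard error 0.18, adjusted p = 8.19e-09). It ranked 15 from the lowest of all genes there.

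Gpr17, the receptor of committed precursors, was the other gene that fell by more than 2-fold in both kinds of recipients. It was 5.92, 6.11, 5.75, 6.34 and 6.28 in Th17 recipients, against 7.65, 7.55, 7.40, 7.75 and 7.56 in naive mice. No recipient overlapped the naive range. The fall was 2.83-fold in Th17 recipients (-1.50 on the log2 scale, standard error 0.18, adjusted p = 1.24e-07) and 4.40-fold in Th1 recipients (-2.14, standard error 0.18, adjusted p = 2.33e-10). Th1 recipients had 5.64, 4.85, 4.84, 6.09 and 5.80. Gpr17 ranked 59 from the lowest of 17097 genes in Th17 recipients and 4 in Th1 recipients.

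The lineage transcription factors fell less. Olig1, a basic helix-loop-helix factor, was 10.04, 9.98, 10.26, 10.02 and 10.25 in Th17 recipients, against 10.89, 10.90, 10.68, 10.73 and 10.85 in naive mice. Its log2 difference was -0.70 (standard error 0.09, adjusted p = 1.78e-07) in Th17 and -0.76 (standard error 0.09, adjusted p = 6.25e-08) in Th1 recipients, whose values ran from 9.77 to 10.30, and neither group overlapped the naive mice.

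Olig2, the neighbour of Olig1 on chromosome 16 and the factor that specifies the lineage, was 5.58 to 5.78 in Th17 recipients, with a median of 5.68, against 6.60, 6.76, 6.48, 5.63 and 6.35 in naive mice. Naive mouse 4 lay within the range of the Th17 recipients and the other 4 naive mice lay above it. The log2 difference was -0.68 (standard error 0.15, adjusted p = 0.000589), -0.86 without naive mouse 4, and the call was lost by the exact Mann-Whitney test after adjustment (adjusted p = 0.113). In Th1 recipients, at 5.61 to 5.999, it was -0.58 (standard error 0.15, adjusted p = 0.00292), a call lost by the methods' t-test and the exact Mann-Whitney test after adjustment (adjusted p = 0.0589 and 0.115).

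Sox10, which drives myelin genes, was 9.28, 9.37, 9.34, 9.34 and 9.86 in Th17 recipients, against 9.85, 9.67, 9.61, 10.04 and 10.19 in naive mice. Only Th17 recipient 5 reached the naive range. The log2 difference was -0.43 (standard error 0.16, adjusted p = 0.0299), and this call was lost when any 1 of Th17 recipients 1 to 4 or of naive mice 4 and 5 was left out (adjusted p = 0.0571 to 0.0970) and by the methods' t-test and the exact Mann-Whitney test (adjusted p = 0.0515 and 0.113). In Th1 recipients, from 8.63 to 9.49, all values lay below the naive mice and the difference was -0.75 (standard error 0.16, adjusted p = 0.000351). The other 2 probe sets of Sox10 were also called lower in both comparisons, with differences of -0.40 and -0.42 in Th17 recipients and -0.61 and -0.69 in Th1 recipients.

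The promoter window of Olig2 from RefSeq (GRCm38.p6, chr16:91225300-91225599, + strand), 250 bases before to 50 after the start of the gene, is shown as that of a lineage factor that fell in both kinds of recipients. Capitals mark matches, on either strand, to an E-box (CANNTG), SOX motifs (ACAAAG or ACAATG), a GC box (GGGCGG) or an RBPJ core (TGGGAA); such matches are letters in a window, not measured binding. RBPJ is the DNA-binding partner of NOTCH.
Olig2: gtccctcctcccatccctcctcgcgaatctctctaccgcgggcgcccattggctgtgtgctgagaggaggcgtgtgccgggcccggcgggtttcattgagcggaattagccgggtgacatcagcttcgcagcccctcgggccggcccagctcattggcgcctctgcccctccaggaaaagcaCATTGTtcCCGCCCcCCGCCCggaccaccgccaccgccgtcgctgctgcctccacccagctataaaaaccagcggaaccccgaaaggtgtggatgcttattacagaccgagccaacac
The window holds 1 SOX match at position -68 from the start and 2 GC boxes at -60 and -53, with no match to an E-box or RBPJ core. Among all 32851 windows of this length, 72.3% hold an E-box, 28.6% a SOX match, 35.7% a GC box and 25.6% an RBPJ core. Windows were given for 6 of the 10 genes.

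Ptprz1, the receptor phosphatase of precursors and astrocytes, was 8.51, 8.60, 8.37, 8.44 and 8.56 in Th17 recipients, against 9.02, 8.96, 9.22, 8.78 and 9.05 in naive mice. The groups did not overlap, and the log2 difference was -0.51 (standard error 0.11, adjusted p = 0.000503). It was -0.50 (standard error 0.11, adjusted p = 0.00066) in Th1 recipients, at 8.27 to 8.77, which also lay wholly below the naive mice. Its second probe set fell too, by 0.34 in Th17 and by 0.24 in Th1 recipients.

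Cspg5 and Pdgfra did not pass the test in either kind of recipient. Cspg5, a transmembrane proteoglycan of precursors and neurons, was 7.02 to 7.42 in Th17 recipients and 7.01 to 7.52 in naive mice, with a log2 difference of -0.11 (95% confidence interval -0.41 to 0.18), and it was called lower only with ribosomal centring (-0.53, adjusted p = 0.0042). Pdgfra, the growth factor receptor that defines precursors, was 2.67 to 2.87 in Th17 recipients, 2.53 to 2.77 in Th1 recipients and 2.56 to 2.74 in naive mice. These values are under the median of every array, so the probe set gives no usable level of Pdgfra, and with Cspg4 unmeasured the 2 markers most used to define precursors are both missing from this account.

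Vcan, the versican gene, was the exception. It was 6.37, 6.95, 6.61, 6.54 and 6.56 in Th17 recipients, against 5.71, 5.84, 5.97, 5.88 and 6.13 in naive mice. All 5 Th17 recipients lay above all naive mice, and the rise was 1.63-fold (log2 difference 0.70, standard error 0.15, adjusted p = 0.000337), though only 0.28 and no longer called (adjusted p = 0.0688) when arrays were centred on ribosomal protein genes. In Th1 recipients, at 5.61 to 6.42, the difference was 0.17 (95% confidence interval -0.14 to 0.48).

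Versican mRNA is spliced into several forms, and the 5 probe sets of Vcan did not read alike. The second brightest rose most, by 1.21 in Th17 recipients over naive mice (standard error 0.22, adjusted p = 4.3e-05). The third differed by 0.32 (adjusted p = 0.0507), and the remaining 2, which averaged 3.20 and 2.59 over the arrays and so lay under the array medians, by -0.11 and 0.07. Which splice form each probe set reads was not determined.

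The promoter windows of Bcan and Vcan (GRCm38.p6, chr3:88000307-88000606 and chr13:89742463-89742762, both on the - strand) are shown as those of the lecticans that moved in opposite directions, with the same motifs in capitals.
Bcan: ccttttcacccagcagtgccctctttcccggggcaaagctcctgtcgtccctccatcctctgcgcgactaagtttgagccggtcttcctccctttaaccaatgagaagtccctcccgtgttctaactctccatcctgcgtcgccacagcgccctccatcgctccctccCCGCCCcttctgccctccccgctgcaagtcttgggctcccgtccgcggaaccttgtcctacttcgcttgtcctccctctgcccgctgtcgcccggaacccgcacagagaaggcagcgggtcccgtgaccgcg
Vcan: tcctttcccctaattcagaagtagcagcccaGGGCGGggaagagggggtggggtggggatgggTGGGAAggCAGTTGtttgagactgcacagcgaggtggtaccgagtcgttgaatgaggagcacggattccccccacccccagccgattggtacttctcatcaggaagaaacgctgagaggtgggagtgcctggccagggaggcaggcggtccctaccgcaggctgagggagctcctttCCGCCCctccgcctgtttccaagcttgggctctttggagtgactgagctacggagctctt
The Bcan window holds 1 GC box at -82 and no match to the other motifs. The Vcan window holds 2 GC boxes at -219 and -10, an E-box at -179 and an RBPJ core at -187.

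**Figure D2:**
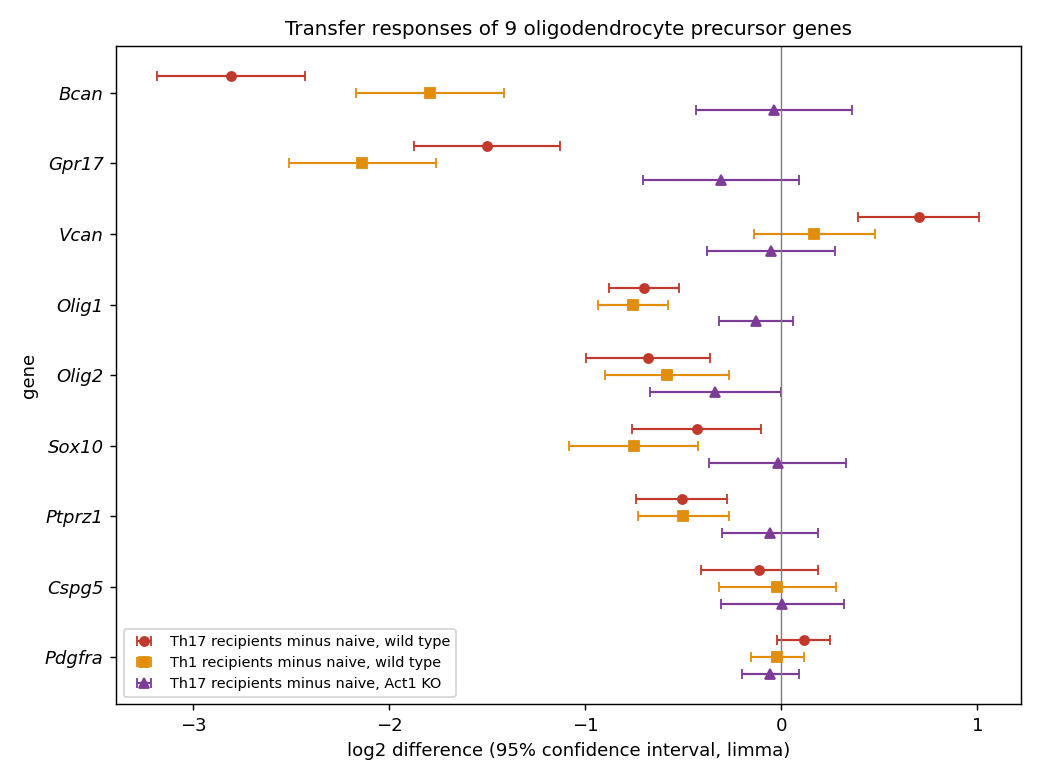
Log2 differences (horizontal axis, with 95% confidence intervals) of the 9 genes for Th17 recipients against naive mice in wild type, Th1 recipients against naive mice in wild type, and, among mice labelled Act1 KO, Th17 recipients against naive mice. Bcan is the lowest point at -2.81, Vcan lies right of 0 in wild-type Th17 recipients, and all intervals for mice labelled Act1 KO include 0 except that of Olig2, whose upper end is near 0.

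Of the 9 genes, 4 lay wholly below the naive range in Th17 recipients (Bcan, Gpr17, Olig1 and Ptprz1), where 20.0% of all genes did, and 1 wholly above it (Vcan), where 15.0% did. In Th1 recipients 5 lay below (these 4 and Sox10), where 19.5% of all genes did. The sample titles hold a code read as a row and column of the array plate. Within the 4 plate rows that held both groups, the log2 difference of Th17 recipients from naive mice was -2.99 to -2.84 for Bcan, -1.91 to -1.204 for Gpr17 and 0.68 to 0.90 for Vcan. It was -0.88 to -0.478 for Olig1, -0.643 to -0.216 for Ptprz1 and -0.816 to -0.175 for Sox10. For Olig2 it ran from -0.978 to 0.136, with 1 of the 4 rows above 0.

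Recipients of Th17 and of Th1 cells differed in 2 of the 9 genes. Bcan was 2.02-fold lower in Th17 than in Th1 recipients (-1.02 on the log2 scale, standard error 0.18, adjusted p = 0.0012), among 1.09% of all genes called lower, and the Th17 recipients lay wholly below, as for 1.36% of all genes. Vcan was 1.45-fold higher (log2 difference 0.54, standard error 0.15, adjusted p = 0.0498), among 1.91% called higher, with overlapping groups. Bcan ranked 30 from the lowest of all genes. Gpr17 ran the other way from Bcan, with a level 1.56-fold higher in Th17 than in Th1 recipients (0.64 on the log2 scale, standard error 0.18), but its adjusted p of 0.0555 missed the threshold, which it passed without Th1 recipient 4 or 5 or Th17 recipient 3 (0.0083, 0.0362 and 0.0377).

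The Bcan call held in every fit of all groups, including those without single arrays, and was lost when only these 2 groups were fitted (adjusted p = 0.0539) and by the methods' t-test (0.257). The Vcan call was lost without any 1 of Th1 recipients 3 to 5 or of Th17 recipients 2 to 5 (adjusted p = 0.0755 to 0.165) and with arrays centred on their medians (0.0684). Its second brightest probe set showed a larger gap between Th17 and Th1 recipients, 1.11 (standard error 0.22, adjusted p = 0.00329). In that same limma fit, adjusted over all probe sets, the brightest probe set of Vcan missed the threshold (adjusted p = 0.0625). The Th1 arrays shared no plate column with another group, so plate column and Th1 transfer cannot be told apart. A limma fit with column as a random block gave adjusted p = 0.00062 for Bcan and 0.0481 for Gpr17. That fit cannot separate the 2 either.

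Th1 recipients 4 and 5 stood apart from the other 3. Their Bcan levels were 6.85 and 6.43, against 5.39 to 5.72 in recipients 1 to 3, and their Gpr17 levels of 6.09 and 5.80 were also the highest of the group. The same 2 cords had the lowest mean level of the mitosis genes, 4.92 and 5.30 against 5.86 to 5.97, and of the monocyte and macrophage genes, 8.27 and 8.20 against 8.36 to 8.63. Their mean myelin gene levels, 9.18 and 9.20, were above the 8.97 to 9.005 of the others. The part of these values in the Bcan and Gpr17 levels was not tested.

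Without Th1 recipients 4 and 5, Bcan was still lower in Th17 than in Th1 recipients, with a smaller gap (log2 difference -0.59, adjusted p = 0.00749). Gpr17 was then higher in Th17 recipients by 0.97 (adjusted p = 0.00103), and Vcan lost its call (0.50, adjusted p = 0.223). Against naive mice, the 3 remaining Th1 recipients gave -2.22 for Bcan and -2.47 for Gpr17. Recipients 4 and 5 had been set apart by their Bcan and Gpr17 levels, the highest of the group. Leaving them out had to move the differences of these 2 genes in these directions, so no conclusion is drawn from the Gpr17 call gained.

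**Figure D3:**
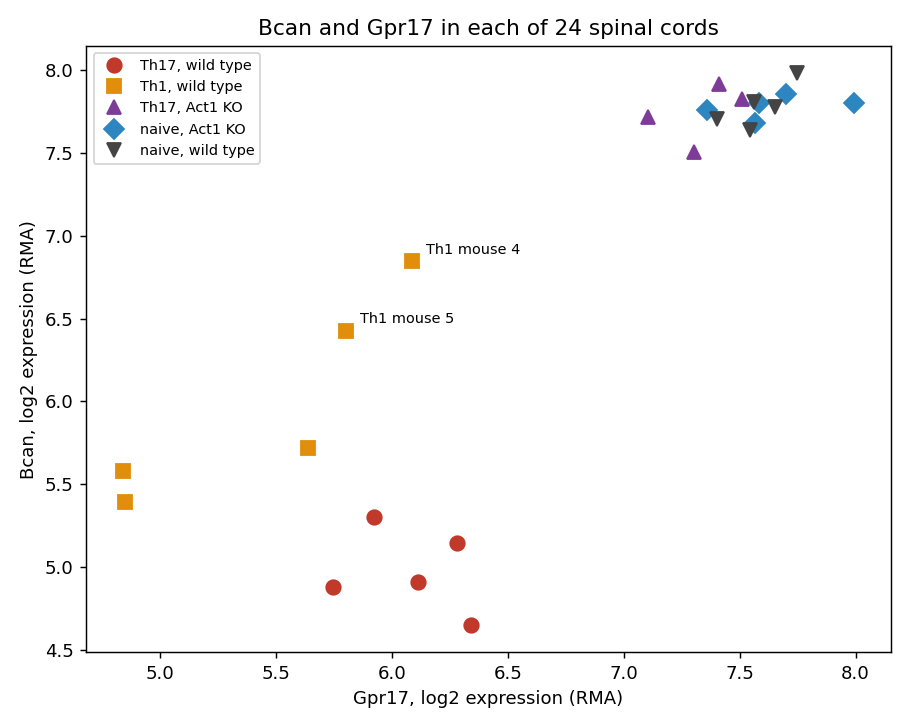
Log2 expression of Bcan (vertical) against Gpr17 (horizontal) in each of 24 spinal cords, marked by group. Wild-type Th17 recipients lie lowest on the Bcan axis at 4.65 to 5.30, Th1 recipients reach lowest on the Gpr17 axis at 4.84, and both naive groups and the Th17 recipients labelled Act1 KO lie together at the upper right.

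For Sox10 the level was 0.32 higher in Th17 than in Th1 recipients (95% confidence interval -0.01 to 0.65, adjusted p = 0.438). Olig1, Olig2 and Ptprz1 differed between them by 0.05 (95% confidence interval -0.12 to 0.23), -0.10 (-0.41 to 0.22) and -0.01 (-0.24 to 0.22).

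In mice labelled Act1 KO, none of the 9 genes was called between Th17 recipients and naive mice, and limma called 0% of all genes in this comparison, with 1070 of 17097 at an unadjusted p under 0.05. At an unadjusted p under 0.05, limma passed 1 of the 9 genes, Olig2, and the methods' t-test and the exact Mann-Whitney test passed none. Bcan was 7.91, 7.51, 7.83 and 7.72 in the Th17 recipients, against 7.68, 7.76, 7.80, 7.80 and 7.86 in the naive mice so labelled. These ranges coincide (log2 difference -0.04, 95% confidence interval -0.44 to 0.36). Gpr17 was 7.41, 7.30, 7.51 and 7.11 in the recipients, against 7.57, 7.36, 7.58, 7.99 and 7.70 in the naive mice, a difference of -0.31 (95% confidence interval -0.70 to 0.09). Olig2 was 5.97, 6.17, 5.72 and 6.19 in the recipients and 6.61, 6.53, 5.97, 6.28 and 6.36 in the naive mice (log2 difference -0.34, unadjusted p = 0.0482, adjusted p = 0.791).

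Set against wild-type Th17 recipients, 4 of the 9 genes were higher in the Th17 recipients labelled Act1 KO, among 24.6% of all genes. They were Bcan (6.80-fold, log2 difference 2.77, standard error 0.19), Gpr17 (2.38-fold, 1.25, standard error 0.19), Olig1 (1.55-fold, 0.63, standard error 0.09) and Ptprz1 (1.45-fold, 0.53, standard error 0.12). Vcan was lower (-0.59, standard error 0.16), the only one of the 9 among 17.6% of all genes, at 6.05, 6.22, 5.83 and 5.98 against 6.37 to 6.95 in wild-type Th17 recipients. None of these 5 genes overlapped between the groups, where 19.2% of all genes lay wholly above and 15.1% wholly below. Sox10 and Olig2 were not called (0.32 and 0.33, adjusted p = 0.134 and 0.107), but the other 2 probe sets of Sox10 were (0.37 and 0.34, adjusted p = 0.0451 and 0.0374), as was its mean over probe sets (0.35, adjusted p = 0.0049). Olig2 was called by the methods' t-test (adjusted p = 0.0467) and with only the 2 groups in the fit (0.0232). The Ptprz1 call was lost with plate row as a block (0.33, adjusted p = 0.105), and that of Vcan with arrays centred on ribosomal protein genes (-0.21, adjusted p = 0.196), under which 8 of the 9 genes and 73.1% of all genes were called higher. Pdgfra, with values under every array median, was again among these 8.

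The naive mice of the 2 genotypes did not differ in a called way in any of the 9 genes (0.585% of all genes were called), and none of the 9 passed an unadjusted p under 0.05 with limma, the methods' t-test or the exact Mann-Whitney test. The difference between the Th17 responses, that of mice labelled Act1 KO minus that of wild type, was tested directly. It was called above 0 for Bcan, Gpr17, Olig1 and Ptprz1, among 18.2% of all genes, and below 0 for Vcan, among 13.8%. For Bcan it was 2.77 (standard error 0.27, adjusted p = 4.26e-09), the highest of all 17097 genes. For Ptprz1 it was 0.45 (standard error 0.16, adjusted p = 0.0364) but 0.09 (adjusted p = 0.856) with plate row as a block, and this call was lost (adjusted p = 0.0518 to 0.0827) without any 1 of Th17 recipients 1, 2 and 4 or naive mice 4 and 5 labelled Act1 KO, or of wild-type Th17 recipients 3 and 4 or naive mice 1, 3 and 5. The second probe set of Ptprz1 was not called for this difference (0.20, adjusted p = 0.293). Olig2 was not called (0.34, adjusted p = 0.279) but was without naive wild-type mouse 4 (0.53, adjusted p = 0.0225) and with ribosomal centring (0.70, adjusted p = 0.011). Sox10 was not called (0.41, adjusted p = 0.201) but was with its probe sets averaged (0.47, adjusted p = 0.00708) and with ribosomal centring (0.77, adjusted p = 0.017). Each naive group enters this difference and the comparisons above. No plate row held both Th17 recipients and naive mice labelled Act1 KO, and 1 row held Th17 recipients of both genotypes, with Bcan higher by 2.81 in the one labelled Act1 KO.

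Counts in the gene lists that follow stand against 25.5% of all genes called lower and 18.0% higher in Th17 recipients over naive mice, and 24.1% lower and 16.7% higher in Th1 recipients. Between Th17 and Th1 recipients, 1.91% of all genes were called higher and 1.09% lower. Counts with ribosomal centring stand against 77.2% of all genes called lower in Th17 recipients over naive mice, and 1704 of 17097 called higher. Of 20 measured genes of another precursor list, 9 fell and 1 rose in Th17 recipients over naive mice (median log2 difference -0.26; 1 higher and 17 lower with ribosomal centring), and 12 fell and 1 rose in Th1 recipients (median -0.36). The strongest falls in Th17 recipients were those of Lims2, a focal adhesion adaptor (log2 difference -1.40, adjusted p = 6.45e-10), Sox8, a factor closely related to Sox10 (-1.13, adjusted p = 6.81e-09), and Lnx1, a ubiquitin ligase of the Notch regulator Numb (-0.84, adjusted p = 1.16e-06). Fabp7, a fatty acid binding protein of radial glia and precursors, rose by 1.68 (adjusted p = 3.02e-06). Lims2 overlaps Gpr17 on chromosome 18 and fell with it in both kinds of recipients (-1.40 and -1.35).

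Of 12 genes of the committed stage, 4 fell and 3 rose in Th17 recipients, near the shares over all genes. With ribosomal centring 8 were lower and 1 higher, where 77.2% of all genes were called lower. Enpp6, a choline phosphodiesterase of newly forming oligodendrocytes, fell by 1.09 (adjusted p = 8.14e-06), Bmp4 by 0.93, Mycl by 0.66 and the kinase gene Fyn by 0.53. Tcf7l2, a transcription factor switched on at commitment, rose by 0.63 (adjusted p = 0.00106), Itpr2, a calcium release channel, by 0.67 and Cemip2, a hyaluronidase, by 0.79. In Th1 recipients 5 fell and 2 rose.

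Of genes of mature oligodendrocytes and myelin, 16 of 19 fell and 1 rose in each kind of recipient, with median log2 differences of -0.70 in Th17 and -0.74 in Th1 recipients. Opalin, a membrane protein of mature oligodendrocytes, fell most in Th17 recipients (-1.82, adjusted p = 9.93e-12), with Ugt8a (-1.45), Fa2h (-1.33) and Tspan2 (-1.25), and Trf, which encodes transferrin, rose (0.49). Bcan lay below all of them, at -2.81.

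**Figure D4:**
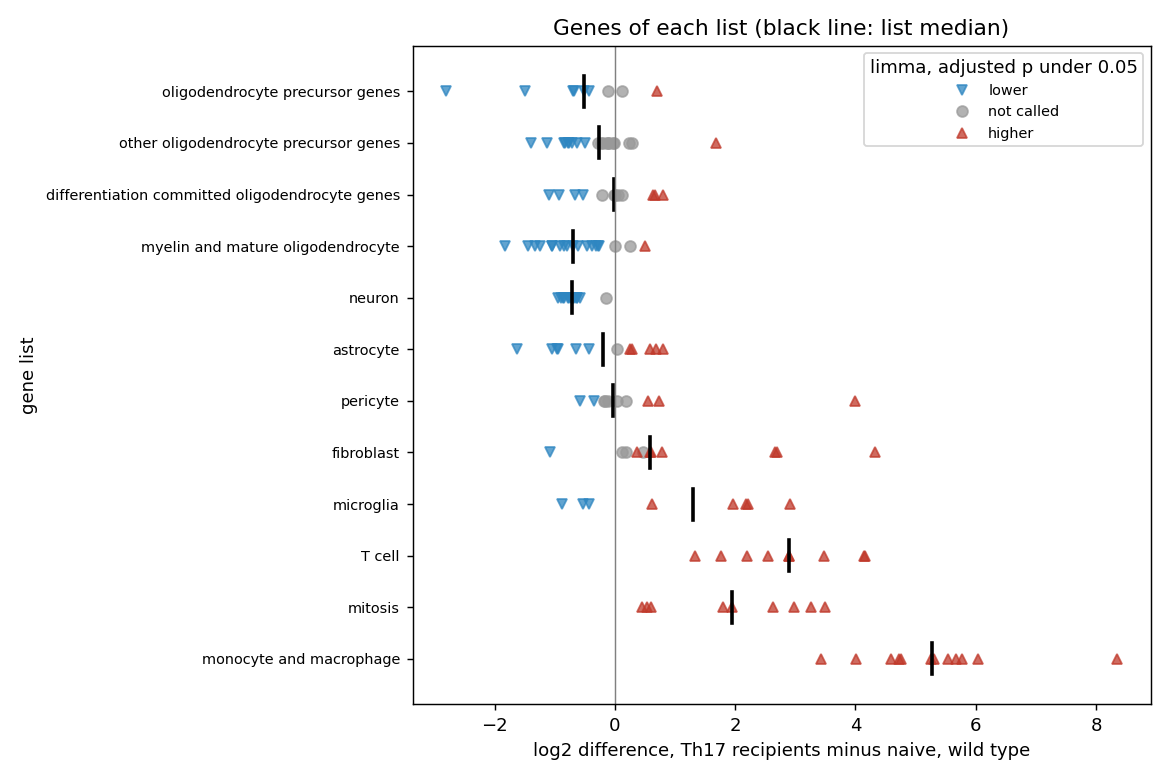
Log2 differences between Th17 recipients and naive mice, wild type (horizontal axis), of each measured gene of 12 lists; down triangles are genes called lower, up triangles higher and circles not called, with the list median as a black line. Precursor, myelin and neuron lists have medians of -0.51, -0.70 and -0.71, and the monocyte and macrophage list 5.28.

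Other cell types moved with these genes. All 12 measured monocyte and macrophage genes rose in Th17 recipients (median 5.28, with Chil3 at 8.35 and F13a1 at 6.04), as did all 9 T cell genes (median 2.89, Cd3d 4.16) and all 9 mitosis genes (median 1.95, Mki67 3.497). The mean of the monocyte and macrophage list was 8.59 to 8.99 in wild-type Th17 recipients, 8.20 to 8.63 in Th1 recipients and 3.43 to 3.59 in Th17 recipients labelled Act1 KO, against 3.47 to 3.54 in naive mice so labelled and 3.43 to 3.49 in naive wild-type mice. The neuron list fell in 13 of 14 genes (median -0.71, Slc32a1 -0.84). Astrocyte genes were split, with 5 higher, Aldh1l1 and Gfap among them (0.80 and 0.59), and 6 lower, led by S100b and Fgfr3 (-1.04 and -1.62). The part of these shifts in the levels of the 9 genes was not tested.

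Of cells that share single genes with precursors, 7 of 11 fibroblast genes rose and 1 fell in Th17 recipients (Col3a1 4.32, Dcn 2.69, Fbln1 -1.08), and 3 rose and 1 fell in Th1 recipients. The mean of the fibroblast list was 5.06 to 5.36 in Th17 recipients, 4.40 to 5.09 in Th1 recipients and 4.06 to 4.19 in naive mice, and its part in the level of Vcan was not tested. Of 10 pericyte genes 3 rose and 2 fell (Anpep 3.99, Rgs5 -0.35), of 8 microglia genes 5 rose and 3 fell (Trem2 2.91, P2ry12 -0.89), and of 7 Schwann cell genes 2 rose and 3 fell (Egr2 2.26, Sox10 -0.43). Anpep and Egr2 are also active in myeloid cells.

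Brevican and versican are lecticans, proteoglycans that bind hyaluronan, and each lectican gene lies beside the gene of a link protein that fastens such complexes. Neurocan (Ncan) and aggrecan (Acan) are the other 2. In Th17 recipients Bcan fell by 2.81 and its neighbour Hapln2 by 0.46 (adjusted p = 4.49e-05), whereas Vcan rose by 0.70 and its neighbour Hapln1 fell by 1.24 (adjusted p = 7.74e-07). Ncan fell by 0.54 and its neighbour Hapln4 by 1.00 (adjusted p = 1.13e-10), and Acan fell by 0.77 with Hapln3 not measured. So 3 of the 4 lectican genes and the 3 measured link protein genes fell, and Vcan alone rose, in Th17 recipients (with ribosomal centring Vcan was not called).

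**Figure D5:**
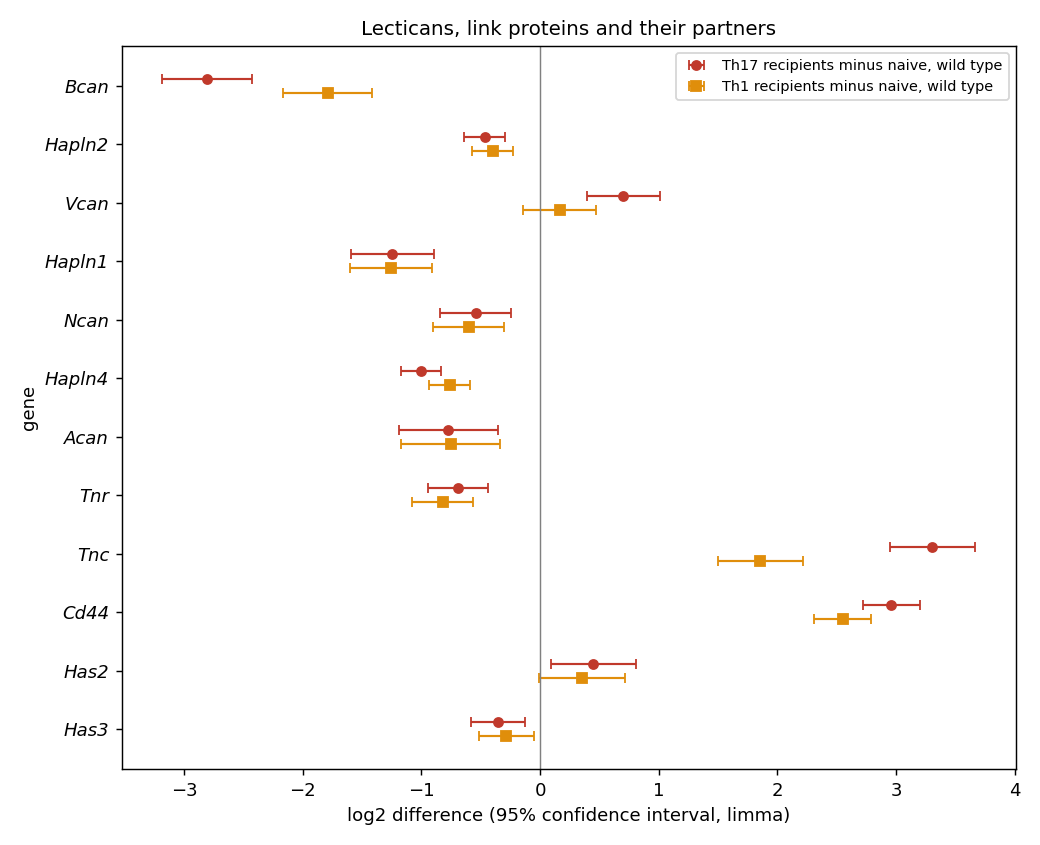
Log2 differences (horizontal axis, 95% confidence intervals) of lectican and link protein genes and their matrix partners in Th17 and Th1 recipients against naive mice, wild type. Bcan, the link proteins, Ncan, Acan and Tnr lie left of 0, and Tnc and Cd44 right of it, with Tnc at 3.31 in Th17 and 1.86 in Th1 recipients.

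Over the 13 measured partners of lecticans, 4 rose and 8 fell in Th17 recipients. Those that rose were Fn1, fibronectin (5.25, adjusted p = 4.62e-19), Tnc, tenascin-C (3.31, adjusted p = 8.83e-15), Cd44, the hyaluronan receptor (2.96, adjusted p = 1.2e-17), and Has2, a hyaluronan synthase (0.45, adjusted p = 0.0384). Tnc was also higher in Th17 than in Th1 recipients, by 1.45 (adjusted p = 5.58e-06), the only partner called between them. Fn1 is in the monocyte and macrophage list as well.

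Of 18 enzymes of chondroitin sulfate chains, 3 rose and 5 fell in Th17 recipients, near the shares over all genes: Chsy1, a chain synthase (1.39), Chst11, a chondroitin 4-O-sulfotransferase (1.35), and Dse, the epimerase that makes dermatan sulfate (0.82), rose, and Csgalnact1, which starts chains, fell most (-0.94). Chst11 was also higher in Th17 than in Th1 recipients (0.88). Of 13 proteases and inhibitors, 6 rose and 3 fell. Timp1, a metalloprotease inhibitor, rose by 7.51, Mmp14 by 3.08, Mmp2 by 2.09 and Adamts1 by 1.62, and the lectican-cleaving Adamts4 fell by 0.48, with Adamts20 (-0.77) and Timp3 (-0.25).

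Between Th17 and Th1 recipients, 6 of these 13 were called, where 1.91% of all genes were called higher and 1.09% lower. Timp1 (1.16), Adamts1 (0.83), Adamts4 (0.67) and Mmp3 (0.51) were higher and Mmp2 (-1.83) and Timp3 (-0.32) lower in Th17 recipients.

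Ligands and partners of PTPRZ1 split, with 4 of 12 higher and 5 lower in Th17 recipients. Ptn, its ligand pleiotrophin, fell by 1.45 (adjusted p = 3.85e-13), and the related ligand Mdk, midkine, rose by 0.42 (adjusted p = 0.00133). The scaffold gene Magi3 fell by 0.88 and the contactin gene Cntn1 by 0.72. Nrcam and Fgf2 rose by 0.33 and 0.38.

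Of 15 growth factor and receptor genes of precursors, 3 rose, near the share over all genes, and 6 fell in Th17 recipients. With ribosomal centring 1 was higher and 11 lower, where 77.2% of all genes were called lower. Cxcl12, a chemokine that guides precursors, rose by 3.70 (adjusted p = 1.99e-20), and was higher than in Th1 recipients by 1.34. Pdgfb and Fgf2 rose by 0.50 and 0.38. The fibroblast growth factor receptors Fgfr3 and Fgfr2 fell by 1.62 and 1.26, and Nrg1, neuregulin, by 0.87.

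Of 17 inhibitors of oligodendrocyte differentiation, 4 rose and 7 fell in Th17 recipients, against 18.0% and 25.5% of all genes. With ribosomal centring 2 were higher and 12 lower, where 77.2% of all genes were called lower. Tgfb1 rose by 3.34, Id3 by 0.92, Id2 by 0.51 and Notch1, a receptor that holds precursors undifferentiated, by 0.40 (adjusted p = 0.000816). Gpr37, an orphan receptor of oligodendrocytes, fell by 1.28, Lingo1 by 0.93 and Id4 by 0.81. In Th1 recipients 4 rose and 3 fell. In mice labelled Act1 KO, no gene of any of these lists was called between Th17 recipients and naive mice, where 0% of all genes were called.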

How the data were processed

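Spinal cord RNA of 24 mice was prepared with the GeneChip HT 3′ IVT Express kit and hybridized to Affymetrix HT MG-430 PM arrays. The authors deposited log2 expression values of 45118 probe sets, made by RMA. The version of RMA, and which arrays were normalized together, is not given in the sources used here. Names of probe sets come from the annotation of the platform: 28898 have 1 gene symbol, 551 several and 15669 are not listed, and only the first were used. For each of 17097 genes the probe set of highest mean over all arrays was taken. Groups were taken from the sample labels. No pair of arrays held the same values (smallest mean absolute difference 0.142), and precision is limited by how many arrays there are.

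All 24 arrays were fitted together with limma 3.58.1 (lmFit and eBayes) in R 4.3.3, without a block, two-sided, with Benjamini-Hochberg adjustment over all genes. Other probe sets of a gene were read from the same kind of fit to all probe sets with 1 symbol, adjusted over these. The fit was tested on simulated data. Exact permutation tests used scipy 1.17.1. The 10 genes, and the lists of other genes, were chosen with earlier results of these data known. All 10 are named, and from each other list up to 4 called genes, ordered by adjusted p, and genes called against most of their list; other names were chosen after their values were seen. Promoter windows and the order of genes come from RefSeq (GRCm38.p6).

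Alternatives were averaging the probe sets of a gene, leaving out dim genes, 3 scalings, variance models, array weights, the groups in the fit, replicate number, plate row and plate column as blocks, arrays left out, the methods' t-test, the Mann-Whitney test and a 2-fold threshold.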

Additional observations from a re-analysis of the deposited data

Results flagged for a closer look

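In Th17 recipients Sox10 was 9.86 in mouse 5, the highest of its group, against 9.37 in the nearest other mouse. This gap was 0.838 of the whole range, above the limit for 5 samples, as it was in 1 of 45 groups of values checked; chance alone flags about 1 in 20. Without this mouse Sox10 was called higher in Th17 recipients labelled Act1 KO than in wild-type Th17 recipients (log2 difference 0.43, adjusted p = 0.0443), which it was not with all arrays (0.32, adjusted p = 0.134). Leaving out the highest wild-type value had to raise this difference, so no conclusion is drawn from the call gained.

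The Th17 response differed between mice labelled Act1 KO and wild type, by the test of the difference itself, for 5 of the 9 genes, where 18.2% of all genes were called above 0 and 13.8% below. The differences on the log2 scale were 2.77 for Bcan (adjusted p = 4.26e-09), 1.19 for Gpr17 (adjusted p = 0.000837), 0.57 for Olig1 (adjusted p = 0.00081), 0.45 for Ptprz1 (adjusted p = 0.0364) and -0.75 for Vcan (adjusted p = 0.00842). The Ptprz1 call was lost with plate row as a block, and its second probe set was not called (0.20, adjusted p = 0.293).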

How the results depend on the processing

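The counts of called genes were 7 of 9 for Th17 recipients against naive mice, 6 for Th1 recipients against naive mice, 2 for Th17 against Th1 recipients, 5 for Th17 recipients labelled Act1 KO against wild-type ones and 5 for the difference of Th17 responses. Of all genes, 43.5%, 40.8%, 3%, 42.2% and 32% were called in these comparisons. With a 2-fold threshold the counts were 2, 2, 1, 2 and 2, and the share of all genes that passed it was not counted. With single arrays left out the counts ran from 6 to 7, 6 to 6, 1 to 2, 5 to 6 and 4 to 6. The count of Th17 against Th1 recipients was 0 when only these groups were fitted, and 0 by the methods' t-test or the Mann-Whitney test after adjustment. Centring on 67 ribosomal protein genes moved the median of all genes by -0.42 and -0.47 in Th17 and Th1 recipients against naive mice and by 0.37 in Th17 recipients labelled Act1 KO against wild-type ones. It gave 8 called genes in that last comparison, where 73.1% of all genes were then called higher. This shift, common to all genes, turned Pdgfra to -0.30 (adjusted p = 0.00379) in Th17 recipients against naive mice and to 0.28 (adjusted p = 0.0099) in Th17 recipients labelled Act1 KO against wild-type ones, and Vcan to -0.31 (adjusted p = 0.0493) in Th1 recipients against naive mice. Deviations of same-numbered arrays of different groups from their group means correlated at 0.04 on average (46 pairs, 16 over 0.1). Those of differently numbered arrays correlated at -0.01 on average (184 pairs, 43 over 0.1). These values do not settle whether shared replicate numbers pair the mice. With a replicate block the counts stayed within 1.5 times the main ones, Gpr17 was called between Th17 and Th1 recipients (0.64, adjusted p = 0.0243), and Sox10 was called in Th17 recipients labelled Act1 KO against wild-type ones (0.40, adjusted p = 0.00993) and in the difference of Th17 responses (0.49, adjusted p = 0.0263). Over single genes and all alternatives, 1496 values kept their side of the threshold, and 43 lost and 26 gained a call. A further 3 changed sign with a call before or after. Changes of sign without a call in either fit were counted among the 1496. Values under the array medians, as for Pdgfra, limit what can be read.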
